A study of Mus musculus with 12 samples.

Results

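The genes on either side of Sirt3 on mouse chromosome 7 were compared between Sirt-3 wild-type (WT) and knockout (KO) mouse embryonic fibroblasts (MEFs) of both sexes. A gene was included when its lower coordinate in the GENCODE annotation of GRCm38 lay from 5 Mb before Sirt3 to 5 Mb after it and its mean over the 12 libraries was at least 1 TPM (a length-normalised share of the transcripts of a library). Sirt3 itself and 13 further names, among them Igf2, Cdkn1c, Irf7 and Ccnd1, were left out by the rule. This gave 78 genes of the 12504 that reached a mean of 1 TPM, 76 of them protein-coding and 2 processed pseudogenes. 20 lay before Sirt3 and 58 after it, along the increasing coordinate. Of the 198 genes of the table in the window without the listed names, 51 were at 0 in every library and 69 were above 0 with a mean under 1 TPM. The choice used position, mean level and the left-out names, and was made with earlier results of these data known. Of the left-out names 9 reached a mean of 1 TPM, and counts with them added are given below. No threshold on a difference between groups was set, but 6 genes reached the mean of 1 TPM through 1 genotype only. Syce1, Gm15542, Ifitm5 and Tnnt3 had means under 1 TPM over the WT libraries, and Gm49369 and Phlda2 over the KO libraries, so a call of these genes is no independent support for a difference.

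A knockout allele is made in embryonic stem cells of a given strain, and when mice are bred it is inherited together with the DNA around it. Stretches of this linked, or passenger, DNA can differ from the control strain, so genes near the targeted gene may differ between KO and WT animals for reasons that have nothing to do with the loss of the protein. The window around Sirt3 is rich in genes and reaches to the end of chromosome 7. It holds interferon-induced membrane proteins, a proteasome subunit, fast troponins, the imprinted domain around Kcnq1, and cortactin and its neighbours next to Ccnd1.

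The 4 groups were WT and KO MEFs of each sex, with 3 libraries per group. The cells came from single embryos of age 13 days, the WT from 129S1/SvImJ mice homozygous for intact Sirt3 and the KO from Sirt3-/- mice, and all lines were immortalized with SV40 T-antigen. RNA was taken 48 h after seeding in triplicate. The KO stock is identified by a catalogue number of the Jackson Laboratory, and the sources used here name neither its strain background nor how many lines a group holds. Where a group is a single line, that line cannot be told apart from genotype and sex. Libraries of a group may be wells of 1 line, and p-values then measure only the spread between wells. No DNA sequence or strain variant was analysed here, so passenger DNA itself was not tested.

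Read totals cannot be had from TPM, and sequencing depth is therefore unknown. Between 12256 and 12637 genes reached 1 TPM in a library, and all 12 libraries had their nearest library within their own group. Of 10 fibroblast markers, 9 passed a mean of 1 TPM and Lum stayed at or under 0.489 TPM, and the blood marker Adgre1 was at 0 in every library. Epithelial markers summed to between 9.54 and 10.6 TPM in the male WT, 0.603 and 1.12 in the male KO, 6.41 and 7.66 in the female WT and 1.93 and 2.25 in the female KO libraries, and 2 of their 5 genes passed a mean of 1 TPM. The fibroblast markers summed to between 9087 and 10204 TPM in WT males, 11429 and 12126 in KO males, 7937 and 8124 in WT females and 9710 and 10044 in KO females. The 4 endothelial markers, of which 1 passed a mean of 1 TPM, summed to between 1.80 and 2.11 TPM in WT males, 1.40 and 1.63 in KO males, 4.72 and 5.76 in WT females and 1.87 and 2.25 in KO females. In KO of both sexes the fibroblast sum was thus higher and the epithelial and endothelial sums lower, without overlap, and their part in the differences below was not tested. Not every marker followed its sum. In males Col1a1 rose from a mean of 3184 to 4807 TPM and Thy1 from 132 to 223. Vim stood at 3109 in WT and 3113 in KO males, and Col1a2 at 1303 and 1284. The endothelial sum was mostly Kdr, at 1.45 and 1.23 TPM in WT and KO males and 4.77 and 1.76 in females. Total Sirt3 mRNA (chromosome 7 from 140863666 to 140882309, minus strand) was not lower in libraries labelled KO. Its TPM were 6.58, 7.17 and 9.07 in male WT, 8.88, 10.9 and 11.00 in male KO, 7.40, 7.60 and 8.69 in female WT and 7.57, 9.06 and 8.19 in female KO libraries, and limma gave an adjusted p of 0.0981 in males and 0.772 in females. Values summed per gene cannot tell an intact from a truncated transcript, and male or female KO below means the libraries so labelled. The paper shows an immunoblot of Sirt3 protein in these MEFs, which was not examined here.

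Differences are given as KO minus WT on the log2(TPM+1) scale, with the standard error (SE) of limma, and were called at an adjusted p (Benjamini-Hochberg over all 12504 genes) under 0.05. In bulk RNA, fewer cells that express a gene and less of its RNA per cell cannot be told apart. Between male KO and male WT MEFs 15 of the 78 flanking genes passed (19.2%), where 21.6% of all genes tested did. Of these, 10 were higher in KO (12.8%), against a background of 10.7%, and 5 were lower (6.41%), against 10.9%. Between female KO and female WT MEFs 11 passed (14.1%), where 11.5% of all genes did. Of these, 4 were higher (5.13%, background 5.63%) and 7 lower (8.97%, background 5.84%). Of the called genes, Syce1 and Tnnt3 in males and Tnnt3 in females are among those that reached 1 TPM through KO libraries only. Taken over both directions, the shares called among the flanking genes were close to those of all genes. The shares of lower genes were less close. With the 9 left-out names that reached 1 TPM added, 21 of 87 passed in males, 11 higher and 10 lower. In females 13 then passed, 5 higher and 8 lower. KO and WT values did not overlap for 31 of the 78 genes in males (39.7%), where this held for 40% of all genes. Of these, 17 were higher (21.8%, background 18.8%) and 14 lower (17.9%, background 21.2%). In females KO and WT values did not overlap for 19 genes (24.4%), fewer than the 33.6% of all genes. Of these, 9 were higher (11.5%, background 14.9%) and 10 lower (12.8%, background 18.7%). The median difference of the 78 genes was 0.0705 in males, beside -0.0153 over all genes, and 0.0196 in females, beside -0.0225.

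**Figure D1:**
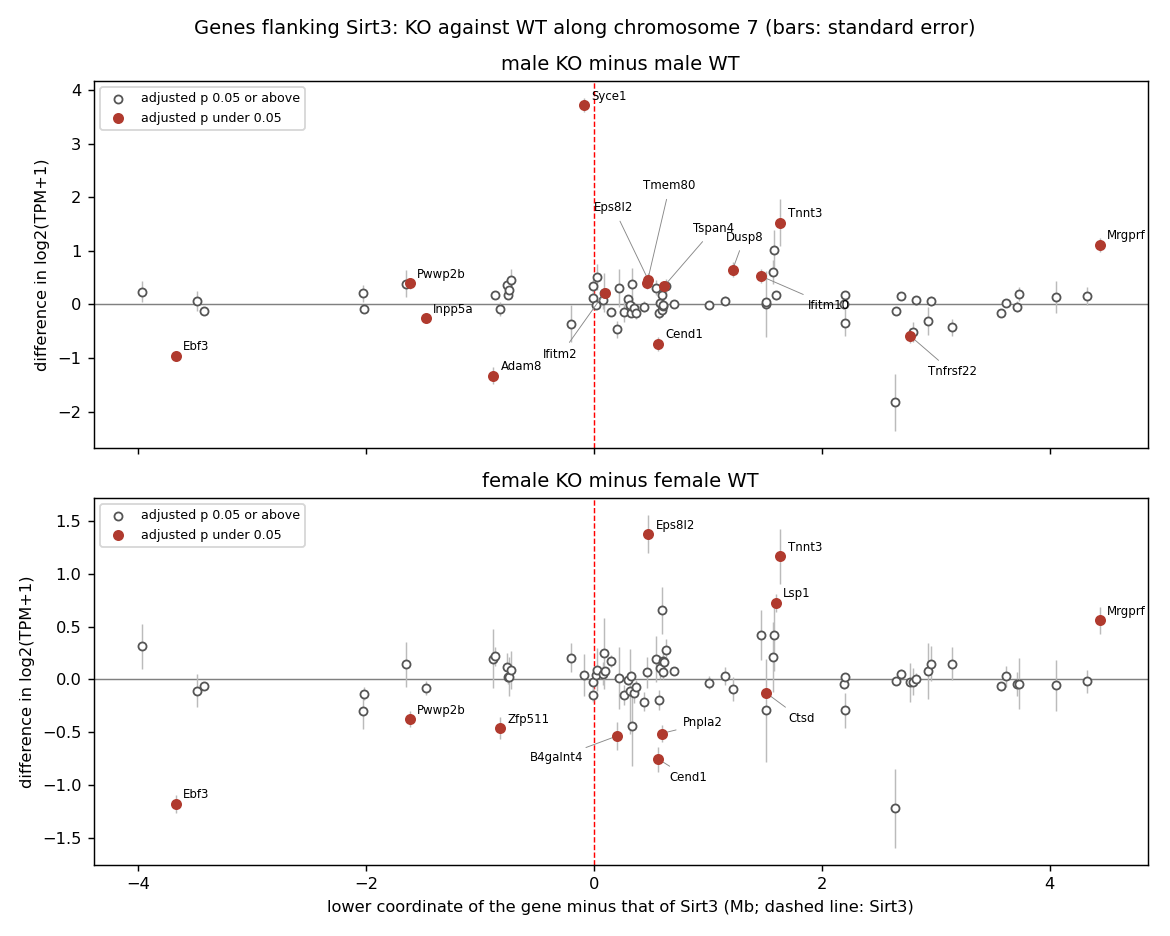
Difference between KO and WT on the log2(TPM+1) scale (vertical axes, KO minus WT) for the 78 flanking genes against the distance of their lower coordinate from that of Sirt3 in Mb (horizontal axis), for males (top) and females (bottom). Filled points had a limma adjusted p under 0.05, open points did not, and bars are standard errors of 3 libraries against 3. The filled points, 15 in males and 11 in females, are spread over the window and not gathered at Sirt3, and the Syce1 point at 3.72 depends on the pseudocount.

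The plot of differences by position shows where the called genes lay. Within 250 kb of Sirt3, 2 of 12 genes passed in males (16.7%) and 1 in females (8.33%). Within 1 Mb the counts were 7 of 40 genes in males (17.5%) and 5 in females (12.5%), and beyond 1 Mb they were 8 of 38 (21.1%) and 6 (15.8%). Across the 78 genes the absolute difference and the distance from Sirt3 had a Spearman correlation of 0.03 in males and -0.05 in females. This is a description across genes, which come from the same 6 libraries and are not independent replicates. In narrower bins, of 4 to 21 genes, the share had no single course. After Sirt3 it was 12.5% within 0.25 Mb, 19% from there to 1 Mb, 23.1% to 2.5 Mb and 12.5% beyond in males. In females it was 12.5%, 14.3%, 23.1% and 6.25% in the same bins. On the side before Sirt3, 5 of 20 genes passed in males and 3 in females, and on the side after it 10 and 8 of 58.

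Other stretches of chromosome 7 gave shares as high. The rest of the chromosome was divided into 14 stretches, 13 of 10 Mb and a last one of 5.9 Mb that ends at the window. The share called in males ran from 12.6% to 40% with a median of 19.1%, and 7 stretches exceeded the 19.2% of the flanking genes. In females it ran from 3.33% to 20.5% with a median of 10.1%, and 6 stretches exceeded their 14.1%. Over the 19 autosomes the share was 18.4% to 27.2% in males, with 17 above the flanking genes, and 9.03% to 14.4% in females, with 1 above them. Stretches hold between 13 and 117 tested genes, so the smaller of them move by several percent with 1 gene.

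**Figure D2:**
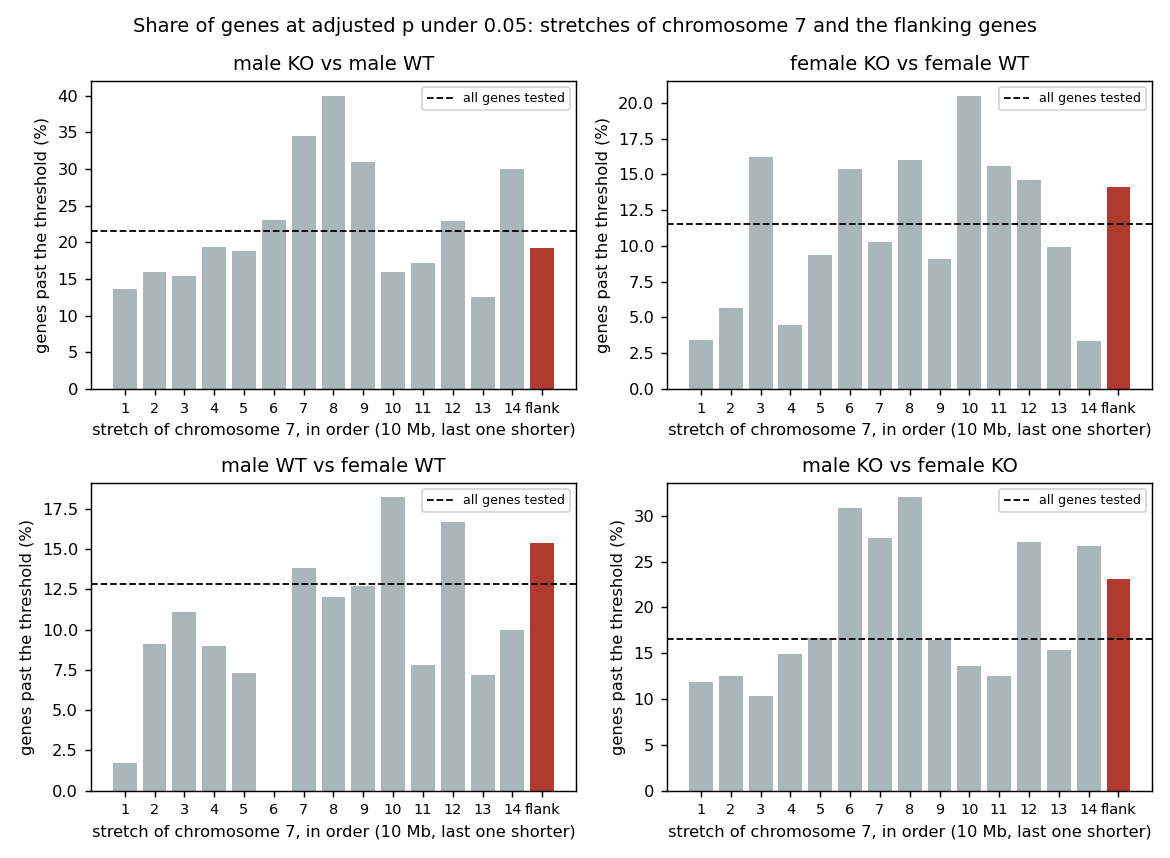
Percentage of genes with a limma adjusted p under 0.05 (vertical axes) in the 14 stretches of the rest of chromosome 7, numbered in order, the last of 5.9 Mb and the others of 10 Mb (grey bars), and among the 78 genes flanking Sirt3 (red bar), for 4 comparisons. The dashed lines show all 12504 genes, at 21.6% for male KO, 11.5% for female KO, 12.8% between the sexes in WT and 16.6% in KO, and in every panel at least 2 grey bars exceed the red bar.

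The 12 genes nearest to Sirt3 are of 34 table genes within 250 kb, of which 6 were at 0 in all libraries. Adjacent on the minus side are Bet1l, a SNARE of the Golgi, and Ric8a, a chaperone of G protein alpha subunits. On the other side the first gene is Psmd13 (chromosome 7 from 140881968 to 140898643, plus strand), a subunit of the regulatory particle of the proteasome that starts head to head with Sirt3. Promoter windows of 300 bases (250 before the start site and 50 after it) from RefSeq on GRCm38.p6 showed that the start sites of Psmd13 and Sirt3 lay 85 bases apart on opposite strands and that their windows shared 184 bases. A second start site of Sirt3 in the same table lay 525 bases from that of Psmd13. The window of Psmd13 is shown because it overlaps that of the targeted gene. Capitals mark CG dinucleotides, of which it held 22.
Psmd13, chr7:140882144-140882443, plus strand: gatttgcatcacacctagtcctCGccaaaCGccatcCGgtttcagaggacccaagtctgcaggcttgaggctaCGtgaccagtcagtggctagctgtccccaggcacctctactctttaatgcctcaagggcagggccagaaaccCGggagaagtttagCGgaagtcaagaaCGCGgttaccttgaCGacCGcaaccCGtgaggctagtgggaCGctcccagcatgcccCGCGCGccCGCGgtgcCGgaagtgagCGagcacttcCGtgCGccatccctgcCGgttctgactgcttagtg

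Psmd13 passed in neither sex. Its TPM were 115, 118 and 127 in male WT and 120.1, 124 and 113 in male KO libraries. In females they were 116, 113 and 107 in WT and 113, 116 and 117 in KO libraries. The KO and WT values overlapped in both sexes. The difference was -0.012 in males (SE 0.055, adjusted p = 0.902, limma) and 0.045 in females (SE 0.041, adjusted p = 0.531, limma). Ric8a differed by 0.12 in males and -0.15 in females (adjusted p = 0.409 and 0.205, limma). Bet1l differed by 0.34 and -0.022 (adjusted p = 0.125 and 0.938, limma). KO and WT values of Ric8a and Bet1l also overlapped in both sexes. The exons of Ric8a share 418 bases with Sirt3 on the opposite strand, those of Psmd13 342 bases, and those of Bet1l and Ric8a 390 bases with each other. The sources used here do not say whether the quantification used strand, so reads of such pairs may be counted on either gene.

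Of the other near genes, the pseudogene Gm15542, the collagen glucosidase Pgghg, the bone-restricted Ifitm5, the desmosomal plakophilin Pkp3 and the olfactory receptor Olfr539 passed in neither sex. Their differences ran from -0.36 for Olfr539 to 0.51 for Gm15542 in males, and from 0.010 for Pkp3 to 0.25 for Ifitm5 in females. Gm15542, Ifitm5 and Pkp3 had means under 2 TPM in every group and wide spreads between libraries. B4galnt4, a glycosyltransferase that builds LacdiNAc groups, was lower in female KO MEFs. Its TPM were 10.3, 10.2 and 8.13 in female WT and 5.86, 7.22 and 5.68 in female KO libraries, which did not overlap, with a difference of -0.54 (SE 0.13, adjusted p = 0.048, limma). In males the values were 9.94, 12.6 and 8.29 in WT and 7.70, 6.19 and 7.47 in KO libraries, again without overlap, and the difference of -0.46 did not pass (adjusted p = 0.0879, limma). The female call was lost with any of the 6 libraries left out (adjusted p 0.0534 to 0.142, limma), and the call on the mean of both sexes below was kept.

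Syce1, whose product is part of the central element of the synaptonemal complex in meiotic chromosome pairing, stood apart from all other flanking genes. It lies 86.4 kb before Sirt3 (chromosome 7 from 140777229 to 140787852, minus strand). Its TPM were 12.1, 13.3 and 11.3 in the male KO libraries. It was listed at 0 in all 3 male WT and all 3 female WT libraries, and at 0, 0 and 0.0907 in the female KO libraries. The transcript was thus present in the male KO group and at or near 0 in the female KO group, which carries the same labelled genotype. With WT listed at 0, the log2(TPM+1) difference in males (3.72, and 6.94 with a pseudocount of 0.1) depends on the pseudocount and is no measure of fold. Syce1 entered the tests through the male KO libraries only. The limma adjusted p was 9.3e-06 between male KO and WT, 0.922 between female KO and WT and 9.4e-07 for the difference between the sexes. The call in males held with every library left out (adjusted p 0.000123 to 0.000227, limma). No exon bases of Syce1 overlap another annotated gene. Its promoter window is shown because the transcript was listed at 0 in 8 of the 9 libraries outside the male KO group, and it held 14 CG, a number that 36.3% of the 32851 windows in the table reached.
Syce1, chr7:140787805-140788104, minus strand: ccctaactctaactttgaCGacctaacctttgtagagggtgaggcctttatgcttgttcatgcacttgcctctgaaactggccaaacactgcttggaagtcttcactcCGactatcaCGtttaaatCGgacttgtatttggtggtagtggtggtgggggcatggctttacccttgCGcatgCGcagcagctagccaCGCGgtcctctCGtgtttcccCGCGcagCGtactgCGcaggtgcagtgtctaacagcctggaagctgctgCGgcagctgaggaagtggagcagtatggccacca

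The interferon-induced membrane proteins Ifitm2 and Ifitm3, which restrict the entry of enveloped viruses, were among the most abundant flanking genes. Ifitm2 stood at 434, 379 and 407 TPM in male WT and 479, 458 and 477 in the male KO libraries, which did not overlap, a rise of 0.21 (SE 0.052, adjusted p = 0.0272, limma). In females it stood at 396, 395 and 393 TPM in WT and 407, 408 and 435 in KO libraries, again without overlap. The female difference of 0.076 did not pass (adjusted p = 0.192, limma), nor did the difference between the sexes (adjusted p = 0.207, limma). On the mean of both sexes Ifitm2 rose by 0.145 (adjusted p = 0.00568, limma), a call that held with every library left out. Ifitm3 stood at 671, 652 and 689.8 TPM in male WT and 613, 577 and 631 in the male KO libraries, and at 440.4, 468 and 444 in female WT and 471, 509.7 and 548 in female KO libraries. The KO values of Ifitm3 lay below all WT values in males and above them in females. It passed in neither sex alone (adjusted p = 0.0509 and 0.104, limma), and the difference between the sexes of -0.32 passed (adjusted p = 0.0155, limma). The male call of Ifitm2 was lost without male WT 2, male WT 3, male KO 1 or male KO 3 (adjusted p up to 0.0865, limma). Ifitm2 and Ifitm3 are close paralogs, and the way reads were shared between them is uncertain.

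Of the 7 listed Ifitm genes, 4 were among the flanking genes. Ifitm10, a more distant member of the family, lay 1.46 Mb after Sirt3 and also rose in males, from 6.83, 5.35 and 5.73 TPM in WT to 8.22, 10.5 and 8.51 in KO libraries (difference 0.53, SE 0.14, adjusted p = 0.0318, limma). That call was lost without any library but male WT 1 (adjusted p up to 0.0966, limma). So 2 of 4 were higher in male KO (background 10.7%) and 0 in female KO MEFs (background 5.63%), while Ifitm3 stood lower in male KO without passing. Of 15 tested interferon-stimulated genes on other chromosomes 12 were lower (background 10.9%) and 0 higher in male KO MEFs, with a median difference of -1.32. In female KO MEFs 4 were lower (background 5.84%) and 1 higher (background 5.63%). Between the WT groups 13 of the 15 were higher in males (background 6.26%), with a median difference of 0.88. Between the KO groups 2 differed (background 16.6%), 1 in each direction, with a median difference of -0.041. The 2 lists were not tested against each other. At an unadjusted p under 0.05, 3 of the 4 Ifitm genes would pass in males (background 35.1%) and 1 in females (background 27.2%) by limma.

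Across the window, 6 of the 78 genes passed in both sexes (7.69%), against a background of 5.84%. In 5 the direction was the same (6.41%, background 4.74%), and in 1 it was opposite (1.28%, background 1.1%). The male and female comparisons share no library. Differences had the same sign in 55 of 78 genes (70.5%), where 61% of all genes did. In 11 genes (14.1%) the KO and WT values did not overlap in either sex and lay in the same direction, where 14.1% of all genes did. The 5 genes called in the same direction were Ebf3 and Cend1, which were lower in KO, and Eps8l2, Mrgprf and Tnnt3, which were higher. Tnnt3 reached 1 TPM through the KO libraries only, and Phlda2, among the 11 genes without overlap, through the WT libraries only.

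**Figure D3:**
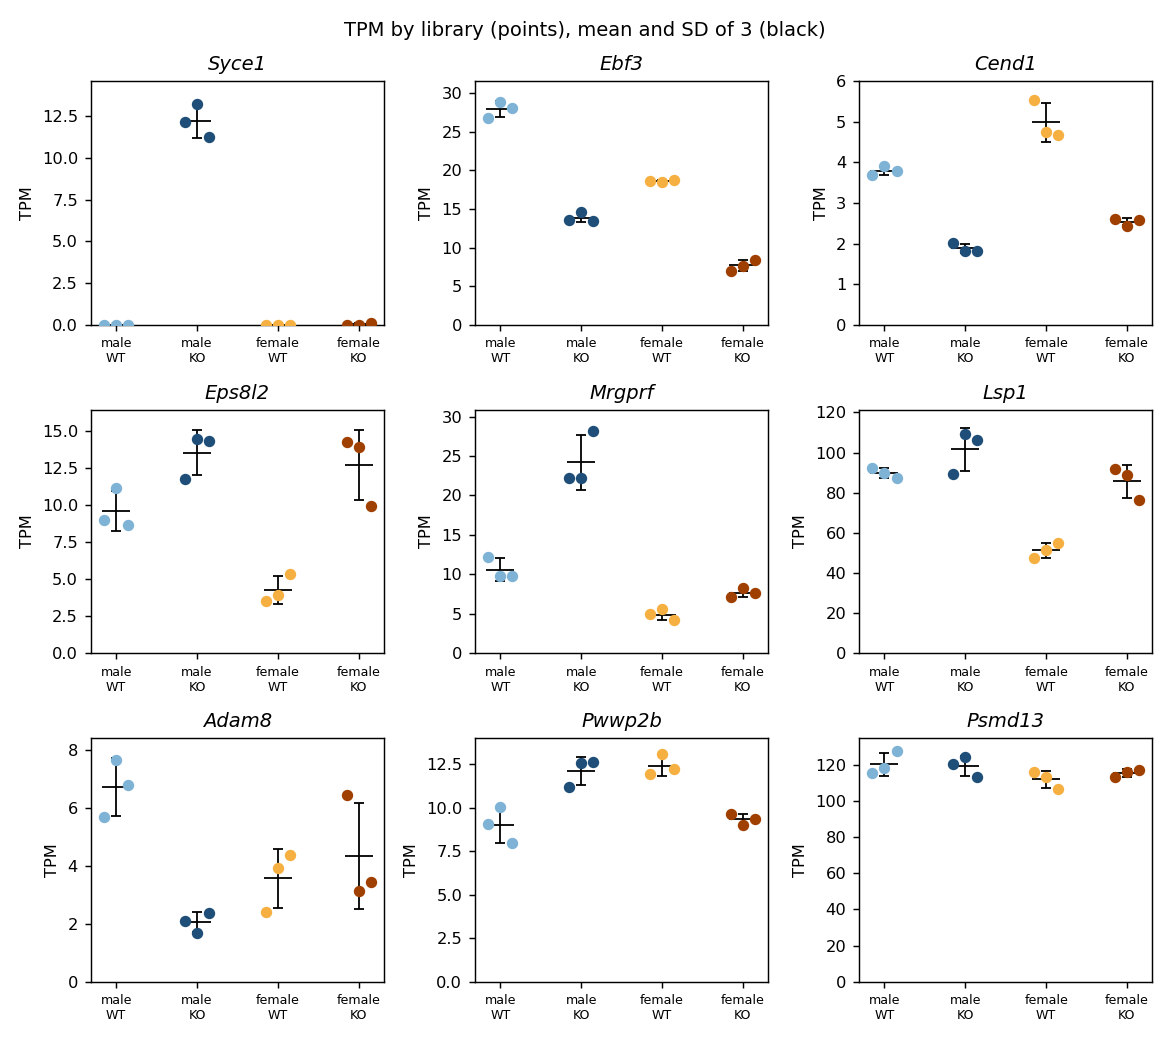
TPM (vertical axes, from 0) of 9 flanking genes in each of the 12 libraries (points), with the mean and SD of 3 libraries per group in black. Syce1 is seen in male KO alone apart from 0.0907 TPM in 1 female KO library, Ebf3 and Cend1 are lower and Mrgprf higher in KO of both sexes, Pwwp2b moves in opposite directions, and Psmd13 stays from 107 to 127 TPM.

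Ebf3, a transcription factor of the early B-cell factor family expressed in mesenchyme and neurons, gave the smallest adjusted p of the genes called in both sexes. It lies 3.67 Mb before Sirt3 (chromosome 7 from 137193673 to 137314445, minus strand). It fell from 26.8, 28.9 and 28.04 TPM in male WT to 13.6, 14.6 and 13.5 in male KO libraries. In females it fell from 18.7, 18.5 and 18.7 TPM in WT to 7.02, 7.67 and 8.41 in KO libraries. All KO values lay below all WT values of both sexes. The difference was -0.96 in males (SE 0.070, adjusted p = 0.000149, limma) and -1.18 in females (SE 0.085, adjusted p = 0.000491, limma). Both calls held with every library left out. Its exons share 355 bases with Gm45278 on the opposite strand. The epithelial and endothelial marker sums were lower and the fibroblast sum higher in KO of both sexes, as given above.

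Cend1, a membrane protein known from neurons leaving the cell cycle, was also lower in KO of both sexes. It lies 563 kb after Sirt3 (chromosome 7 from 141426446 to 141429491, minus strand). Its TPM were 3.69, 3.91 and 3.78 in male WT and 2.02, 1.81 and 1.82 in male KO libraries. In females they were 5.53, 4.74 and 4.69 in WT and 2.60, 2.44 and 2.58 in KO libraries. The groups did not overlap, and the fall was nearly equal in the sexes, by 0.73 in males (SE 0.13, adjusted p = 0.00777, limma) and by 0.76 in females (SE 0.12, adjusted p = 0.0109, limma). The male minus female KO effect was 0.022 (SE 0.16, adjusted p = 0.956, limma). Both calls held with every library left out.

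Eps8l2, which links growth factor receptors to actin remodelling, was higher in KO of both sexes and by more in females. It lies 475 kb after Sirt3 (chromosome 7 from 141338880 to 141363020, plus strand). Its TPM were 3.53, 3.95 and 5.33 in female WT and 14.3, 13.9 and 9.97 in female KO libraries. In males they were 8.98, 11.2 and 8.67 in WT and 11.8, 14.5 and 14.3 in KO libraries. The KO groups stood at similar levels, and the female WT libraries were the lowest. The difference was 1.38 in females (SE 0.18, adjusted p = 0.0058, limma) and 0.46 in males (SE 0.13, adjusted p = 0.0446, limma). The female call held with every library left out, and the male call was lost without male WT 1, male WT 3, male KO 2 or male KO 3 (adjusted p up to 0.134, limma). The exons of Eps8l2 share 1729 bases with B230206H07Rik on the opposite strand.

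The promoter windows of these 3 genes are printed because their levels differed between KO and WT in both sexes. The window of Ebf3 held 46 CG, a number that 1.65% of all windows reached, while that of Cend1 held 5 and that of Eps8l2 held 18, numbers reached by 62% and 29.7% of windows. Ebf3 and Cend1, both lower in KO, and Eps8l2, higher in KO, had promoters of unlike CG content. The windows of Mrgprf and Tnnt3, also called in both sexes, are not shown. Bases are given 5′ to 3′ along the gene with CG in capitals.
Ebf3, chr7:137314396-137314695, minus strand: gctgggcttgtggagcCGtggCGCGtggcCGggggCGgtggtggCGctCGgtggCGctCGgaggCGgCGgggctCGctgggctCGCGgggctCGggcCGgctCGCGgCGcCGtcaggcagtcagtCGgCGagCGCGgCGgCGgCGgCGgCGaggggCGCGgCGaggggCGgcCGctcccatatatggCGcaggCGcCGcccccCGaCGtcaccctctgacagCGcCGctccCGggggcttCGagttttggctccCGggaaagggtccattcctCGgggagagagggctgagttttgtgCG
Cend1, chr7:141429513-141429812, minus strand: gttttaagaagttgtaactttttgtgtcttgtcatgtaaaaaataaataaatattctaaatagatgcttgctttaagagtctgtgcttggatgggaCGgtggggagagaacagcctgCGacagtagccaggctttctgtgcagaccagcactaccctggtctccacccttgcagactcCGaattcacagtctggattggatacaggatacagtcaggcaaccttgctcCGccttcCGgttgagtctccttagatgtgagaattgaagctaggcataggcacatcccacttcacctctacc
Eps8l2, chr7:141338752-141339051, plus strand: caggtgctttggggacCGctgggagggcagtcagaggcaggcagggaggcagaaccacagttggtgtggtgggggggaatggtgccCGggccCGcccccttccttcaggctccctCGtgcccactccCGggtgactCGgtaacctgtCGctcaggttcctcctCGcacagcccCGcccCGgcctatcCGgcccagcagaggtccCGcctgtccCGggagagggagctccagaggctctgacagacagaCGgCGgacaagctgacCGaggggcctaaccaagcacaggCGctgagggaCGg

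Of the 78 flanking genes, 59 were matched by symbol to 86 such windows. At least 10 CG were found in 72.1% of these, beside 43.5% of all windows. The letters GGGCGG or their complement CCGCCC, which contain a CG, stood in 68.6% of the windows of flanking genes and 35.7% of all windows, and TATAAA or TTTATA in 6.98% and 13.6%. The flanking genes were chosen for a mean of at least 1 TPM and the table of windows was not, so the 2 sets differ in that filter as well.

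Mrgprf, an orphan G protein-coupled receptor, was the called gene farthest from Sirt3, at 4.44 Mb (chromosome 7 from 145300828 to 145309557, plus strand). Its TPM were 12.2, 9.79 and 9.78 in male WT and 22.2, 22.2 and 28.2 in male KO libraries. In females they were 4.93, 5.61 and 4.18 in WT and 7.14, 8.31 and 7.60 in KO libraries. KO lay above WT without overlap in each sex, and males above females in each genotype. The rise was 1.12 in males (SE 0.13, adjusted p = 0.00138, limma) and 0.56 in females (SE 0.13, adjusted p = 0.0349, limma), and the difference between these of 0.56 did not pass (adjusted p = 0.0723, limma). The female call was lost without any library but female WT 2 (adjusted p up to 0.108, limma).

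Tnni2 and Tnnt3, which encode troponins of fast skeletal muscle, lie 1.58 and 1.64 Mb after Sirt3. Tnnt3 stood at 0, 0.291 and 0.267 TPM in male WT and 2.38, 5.44 and 0.804 in the male KO libraries, and at 0.575, 0 and 0.282 in female WT and 1.65, 2.66 and 1.35 in female KO libraries. All KO libraries lay above all WT libraries, at levels of a few TPM, and the gene entered the tests through the KO libraries only. It rose by 1.53 in males (adjusted p = 0.049, limma) and 1.17 in females (adjusted p = 0.0336, limma). Both calls were lost with 5 of the 6 libraries left out in turn, all but male KO 3 and female WT 1 (adjusted p up to 0.131 and 0.0913, limma). With a pseudocount of 0.1 the differences of Tnnt3 were 3.25 in males and 2.70 in females, and the female call was lost (adjusted p = 0.0685, limma). Tnni2 stood at 0, 1.84 and 0.407 TPM in male WT and 2.65, 1.94 and 2.06 in the male KO libraries and passed in neither sex (adjusted p = 0.104 and 0.484, limma). The muscle regulators Myod1 and Myog stayed at or under 0.124 TPM in every library. The 4 muscle markers summed to between 3.17 and 6.96 TPM in WT males, 3.97 and 6.11 in KO males, 11.7 and 14.6 in WT females and 6.04 and 7.61 in KO females, so the sum was not higher in KO.

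Pwwp2b, a chromatin protein with a PWWP domain, was the gene called in opposite directions. It lies 1.62 Mb before Sirt3 (chromosome 7 from 139248482 to 139269903, plus strand). Its TPM rose from 9.07, 10.03 and 7.98 in male WT to 11.2, 12.6 and 12.6 in male KO libraries. In females it fell from 11.96, 13.1 and 12.2 in WT to 9.66, 9.02 and 9.38 in KO libraries. The values did not overlap in either sex, and the male minus female KO effect was 0.77 (SE 0.13, adjusted p = 0.00178, limma). The single calls (0.39 with adjusted p = 0.0426 in males and -0.37 with adjusted p = 0.0285 in females, limma) were lost without any library but male WT 2 in males (adjusted p up to 0.128) and without any library in females (adjusted p up to 0.0883). The test of the difference held with every library left out (adjusted p 0.0014 to 0.00656, limma).

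Among genes called in males and not in females, Adam8, a membrane-bound metalloprotease of the disintegrin family, fell from 5.68, 7.68 and 6.81 TPM in male WT to 2.11, 1.70 and 2.39 in male KO libraries (-1.33, SE 0.16, adjusted p = 0.00143, limma). In females it stood at 2.43, 3.93 and 4.38 TPM in WT and 6.46, 3.13 and 3.44 in KO libraries, which overlapped (0.20, adjusted p = 0.703, limma). The male minus female KO effect was -1.53 (adjusted p = 0.0107, limma). Inpp5a, an inositol polyphosphate phosphatase that ends calcium signals, fell from 39.6, 40.2 and 38.6 TPM to 32.5, 32.6 and 33.5 in males (-0.26, adjusted p = 0.0131, limma). Both male calls held with every library left out. The decoy receptor Tnfrsf22, which binds TRAIL without signalling death, fell from 19.7, 16.9 and 13.7 TPM to 9.83, 10.7 and 11.8 (-0.58, adjusted p = 0.0263, limma), a call that was lost without any library but male WT 3 (adjusted p up to 0.0831). Its paralog and neighbour Tnfrsf23 differed by -0.51 and did not pass (adjusted p = 0.103, limma), and reads of the pair could be shared. Of the 3 flanking genes listed as decoy or death receptors, counting Fadd, 1 was lower in male KO (33.3%, background 10.9%) and 0 passed in female KO MEFs. At an unadjusted p under 0.05, 2 would pass in males (background 35.1%) and 0 in females (background 27.2%) by limma.

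Higher in male KO and not called in female KO MEFs were, beside Syce1, Ifitm2 and Ifitm10, the genes Dusp8, Tmem80 and Tspan4. Dusp8, a phosphatase of the stress-activated MAP kinases, rose from 4.82, 4.65 and 4.49 TPM in male WT to 7.74, 9.32 and 6.76 in male KO libraries (0.65, SE 0.13, adjusted p = 0.0139, limma). In females it stood at 6.06, 5.47 and 5.12 TPM in WT and 5.68, 4.85 and 4.95 in KO libraries, and the difference between the sexes of 0.74 passed (adjusted p = 0.0131, limma). The male call was lost without male WT 3 (adjusted p = 0.0511, limma). Tspan4, a tetraspanin of migrasomes and an abundant transcript of these cells, rose from 189, 167 and 173 TPM to 222, 220.1 and 226 in males (0.34, adjusted p = 0.00429, limma) and held with every library left out. Its exons share 292 bases with Chid1 on the opposite strand. Tmem80, a relative of transmembrane proteins of the cilium, rose from 16.8, 20.1 and 20.4 TPM to 22.96, 28.5 and 25.1 (0.40, adjusted p = 0.0426, limma), a call lost without any library but male KO 1 (adjusted p up to 0.108). In females neither Tspan4 (0.16) nor Tmem80 (0.066) passed, and the difference between the sexes passed for neither (adjusted p = 0.197 and 0.318, limma). The female KO values of Tspan4 lay above the WT values without overlap. On the mean of both sexes Tspan4 rose by 0.249 (adjusted p = 0.0007, limma), which held with every library left out.

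Among genes called in females and not in males, Lsp1, an F-actin binding protein of leukocytes that fibroblasts also express, showed the clearest difference. It lies 1.6 Mb after Sirt3 (chromosome 7 from 142460809 to 142494867, plus strand). Its TPM were 47.3, 51.6 and 54.97 in female WT and 91.7, 89.00 and 76.4 in female KO libraries. In males they were 92.5, 90.03 and 87.4 in WT and 89.2, 109 and 106 in KO libraries. The female WT libraries stood below all others, and the male groups overlapped. The rise was 0.73 in females (SE 0.085, adjusted p = 0.00337, limma), and the male minus female KO effect was -0.56 (adjusted p = 0.0114, limma), both held with every library left out. The leukocyte marker Ptprc stayed at or under 0.116 TPM, and the 4 blood markers summed to between 6.47 and 9.12 TPM in female WT and 4.06 and 7.53 in female KO libraries, ranges that overlap.

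Pnpla2, the adipose triglyceride lipase that starts the breakdown of stored fat, fell in females from 25.4, 26.5 and 23.9 TPM in WT to 18.8, 15.8 and 17.7 in KO libraries (-0.51, SE 0.082, adjusted p = 0.0116, limma). In males it stood at 20.3, 21.3 and 20.5 TPM in WT and 19.1, 20.2 and 18.2 in KO libraries (-0.11, adjusted p = 0.338, limma). The difference between the sexes of 0.41 passed (adjusted p = 0.0234, limma) and was lost without male WT 1, male WT 3, male KO 2, female WT 1 or female WT 2 (adjusted p up to 0.0585). Ctsd, the lysosomal aspartic protease cathepsin D, fell in females from 372, 362 and 377 TPM to 343, 332 and 340.5 (-0.13, adjusted p = 0.0311, limma), which was lost without any library but female WT 2 (adjusted p up to 0.105). In males it was 352, 345 and 349.5 TPM in WT and 360.2, 357 and 363 in KO libraries, and the difference between the sexes of 0.18 passed with every library left out (adjusted p 0.00842 to 0.0268, limma). The exons of Ctsd share 808 bases with Gm49369 on the same strand. Zfp511, a zinc finger protein, fell in females from 58.8, 48.7 and 58.6 TPM to 37.8, 37.2 and 44.8 (-0.46, adjusted p = 0.0322, limma), a call lost without female WT 1, female WT 3, female KO 1 or female KO 2 (adjusted p up to 0.106).

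When the KO effect was averaged over the sexes in a fit of all 12 libraries, 22 of the 78 genes passed (28.2%), where 28.4% of all genes did, with 12 higher (background 12.9%) and 10 lower (background 15.5%). Of the 22 genes, Syce1, Tnnt3 and Phlda2 reached 1 TPM through 1 genotype only. With the 9 left-out names that reached 1 TPM added, 28 of 87 passed, 12 higher and 16 lower, a share above the 28.4% of all genes. This fit uses the same libraries as the comparisons within each sex. It called Ebf3 (-1.07, adjusted p = 5.28e-08, limma), Cend1 (-0.74, adjusted p = 2.96e-05), Eps8l2 (0.92, adjusted p = 0.00013) and Mrgprf (0.84, adjusted p = 3.98e-05) with the smallest values beside Syce1. B4galnt4 passed here (-0.50, adjusted p = 0.00499, limma) and held with every library left out. Phlda2, a maternally expressed imprinted gene that restrains growth of the placenta, passed in this fit and in neither sex alone (-1.52, adjusted p = 0.00799, limma) and held with every library left out. Its TPM were 4.09, 2.67 and 7.21 in male WT and 2.42, 0 and 0 in male KO libraries. In females they were 3.19, 1.06 and 1.95 in WT and 0, 1.001 and 0 in KO libraries. Every WT library lay above every KO library of its sex, and 4 of the 6 KO libraries were listed at 0. The size of the Phlda2 difference depends on the pseudocount and was -3.53 with 0.1 (adjusted p = 0.0117, limma), and the gene entered the tests through the WT libraries only.

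Also called in this fit and in neither sex alone were Glrx3, a glutaredoxin of iron-sulfur transfer (-0.090, adjusted p = 0.0249, limma), and Cttn, the actin-binding cortactin (-0.11, adjusted p = 0.0275), both lower. Tubgcp2 of the gamma-tubulin complex (0.20, adjusted p = 0.0296), Chid1 (0.31, adjusted p = 0.0289) and Tssc4, a factor in spliceosome assembly (0.10, adjusted p = 0.041), were higher. Each of these 5 calls was lost with 5 to 9 of the 12 libraries left out in turn. The difference of Glrx3 corresponds to values of 162, 152 and 156 TPM in male WT and 140.5, 143 and 149.9 in the male KO libraries, which did not overlap.

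**Figure D4:**
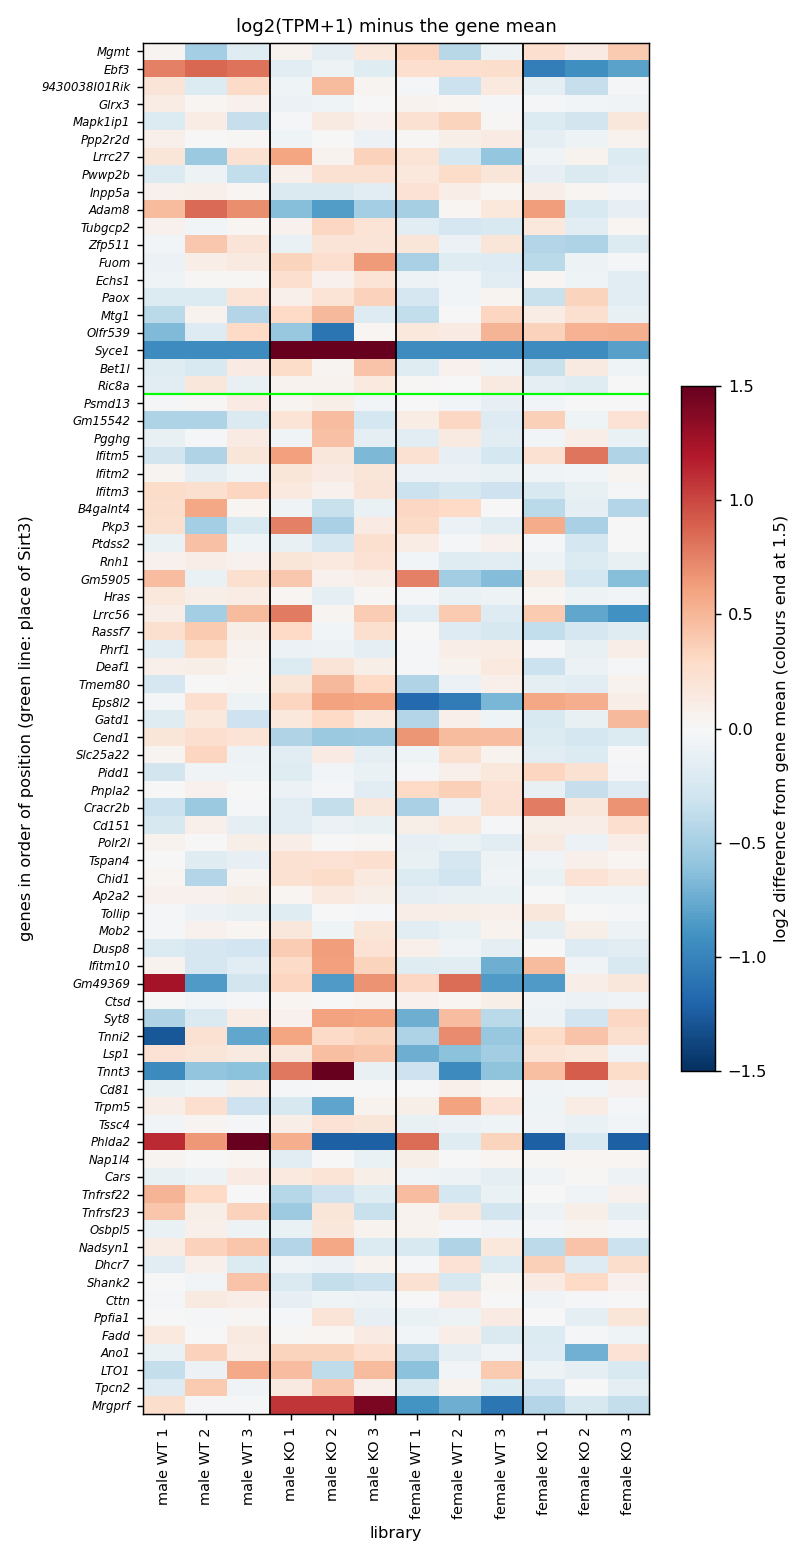
Level of the 78 flanking genes (from top to bottom in order of position) in the 12 libraries (from left to right, in 4 groups of 3), as log2(TPM+1) minus the mean of the gene over all libraries. The green line marks the place of Sirt3, and colours end at 1.5. Deep colours that follow a group stand, among others, at Syce1, Ebf3, Eps8l2, Mrgprf, Tnnt3 and Phlda2, which are not adjacent to each other.

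The difference between the sexes in the KO effect was tested directly, as the sex by genotype interaction. It passed for 9 of 78 genes (11.5%), where 13% of all genes passed. The KO effect was higher in males in 5 (background 6.7%) and lower in males in 4 (background 6.33%). It was higher in males for Syce1, which reached 1 TPM through the male KO libraries only, and for Pwwp2b, Dusp8, Pnpla2 and Ctsd. It was lower for Adam8, Eps8l2, Lsp1 and Ifitm3. For Eps8l2 it was -0.92 (adjusted p = 0.0224, limma) and was lost without male WT 2, male KO 1, female WT 1, female WT 2, female KO 1 or female KO 2 (adjusted p up to 0.0571). Of the 14 genes called in 1 sex alone, 9 in males and 5 in females, the interaction passed for Syce1, Dusp8 and Adam8 among the former and Lsp1, Pnpla2 and Ctsd among the latter. With the 9 left-out names that reached 1 TPM added, the interaction passed for 16 of 87 genes, 7 higher and 9 lower in males. That share lay above the 13% of all genes.

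The flanking genes also differed between the sexes within a genotype. Between male and female WT MEFs, which carry no KO allele, 12 of 78 genes passed (15.4%), where 12.8% of all genes did, and 10 were higher in males (12.8%, background 6.26%). Between male and female KO MEFs 18 passed (23.1%), where 16.6% of all genes did, with 15 higher in males (19.2%, background 8.17%) and 3 lower (3.85%, background 8.39%). These comparisons share libraries with those of KO and WT. The median difference, male minus female, was 0.0411 in WT, beside -0.018 over all genes, and 0.133 in KO, beside -0.0125. Of the 846 other tested genes of chromosome 7, 96 were higher and 41 lower in male KO, with a median difference of 0.068. More genes higher than lower in male KO was thus not particular to the flanking genes. Between the WT groups 45 of these 846 were higher and 36 lower in males, with a median of 0.006. The TPM of the 78 genes summed to between 4293 and 4453 in the 6 male libraries and between 3947 and 4120 in the 6 female libraries, which did not overlap. Such a sum rests mostly on the abundant genes and does not describe the window as a whole. Ifitm3 alone had means of 671 TPM in male WT and 451 in female WT, and 607 and 509.5 in KO libraries. Ctsd, also abundant, went the other way in WT, at 349 TPM in males and 370 in females. On the share called between the sexes in KO, 0 of 19 autosomes and 5 of the 14 other stretches of chromosome 7 exceeded the flanking genes.

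The largest called differences between the sexes in WT were those of Eps8l2 (1.02, male minus female, adjusted p = 0.00843, limma), Mrgprf (0.97, adjusted p = 0.00488), Lsp1 (0.80, adjusted p = 0.000387), Adam8 (0.77, adjusted p = 0.0491), Ifitm3 (0.57, adjusted p = 0.000166) and Ebf3 (0.56, adjusted p = 0.00136), all higher in males. Of the 5 genes called in the same direction by KO in both sexes, Ebf3, Eps8l2 and Mrgprf therefore also differed between WT cultures. Between KO cultures Mrgprf (1.53), Ebf3 (0.78) and Rnh1, the ribonuclease inhibitor (0.31), were higher in males by limma (adjusted p = 0.000209, 0.00204 and 0.00338). Olfr539 was lower in male KO than in female KO libraries (-1.01, adjusted p = 0.0462, limma), at 3.31, 1.99 and 5.53 against 7.16, 8.16 and 8.28 TPM, and its exons share 612 bases with Olfr540-ps1 on the opposite strand.

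The flanking genes were also grouped by function. The counts of each list are set beside the 21.6% of all genes called in males and the 11.5% in females, and no list was tested as a group. Of 6 tested genes of the imprinted domain around Kcnq1 (14 listed), Cd81, Tssc4, Phlda2, Nap1l4, Osbpl5 and Dhcr7, 0 passed in either sex, with median differences of 0.040 in males and -0.003 in females. At an unadjusted p under 0.05, 3 of the 6 would pass in males (background 35.1%) and 1 in females (background 27.2%) by limma. Of 13 tested imprinted genes elsewhere, 3 passed in males and 3 in females, 2 higher and 1 lower in each. Of 6 genes next to Ccnd1 (LTO1, Ano1, Fadd, Ppfia1, Cttn and Shank2) 0 passed in either sex, and median differences were -0.007 in males and -0.041 in females. At an unadjusted p under 0.05, 2 of the 6 would pass in males (background 35.1%) and 0 in females (background 27.2%) by limma. The death receptor adaptor Fadd stood between 6.56 ± 0.460 TPM in female KO and 7.64 ± 0.471 in male WT libraries (SD, n = 3). Shank2, a scaffold of synapses, did not overlap in males, at 4.01, 3.92 and 5.77 TPM in WT and 3.36, 2.93 and 3.03 in KO libraries, and did not pass (adjusted p = 0.113, limma).

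Of 10 flanking genes of the proteasome and metabolism, 0 passed in males and 2 in females (20%), Pnpla2 and Ctsd, both lower (background 5.84%). At an unadjusted p under 0.05, 2 would pass in males (background 35.1%) and 2 in females (background 27.2%) by limma. The others included Echs1, an enzyme of mitochondrial fatty acid oxidation (0.18 in males and 0.020 in females, adjusted p = 0.0969 and 0.885, limma), and Nadsyn1, which makes NAD, the cosubstrate of sirtuins (-0.31 and 0.080, adjusted p = 0.445 and 0.882, limma). Nadsyn1 stood at 4.12, 9.39 and 5.03 TPM in male KO libraries, so 1 library lay far above the other two. Of 8 genes of the cytoskeleton and vesicles, 3 passed in males (37.5%, Tspan4 and Eps8l2 higher, Inpp5a lower) and 1 in females (12.5%, Eps8l2), beside 21.6% and 11.5% of all genes. Of 7 genes of the nucleus and cell cycle, Ebf3 passed in each sex (14.3%), and Deaf1, Phrf1, Hras, Polr2l, Ppp2r2d and Rnh1 did not. Hras, the growth signalling GTPase, stood at 156, 148 and 151 TPM in male WT and 142, 127 and 141 in the male KO libraries, which did not overlap (-0.15, adjusted p = 0.095, limma).

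In all, 20 of the 78 genes passed in at least 1 sex and 58 in neither, by limma. At an unadjusted p under 0.05, 32 of the 78 would pass in males and 18 in females, where 35.1% and 27.2% of all genes would. Differences of the 58 ran from -1.83 (Phlda2) to 1.01 (Tnni2) in males and from -1.22 (Phlda2) to 0.65 (Cracr2b, a calcium sensor regulator) in females. Before Sirt3 they were the DNA repair protein Mgmt, the phosphatase subunit Ppp2r2d, the fucose mutarotase Fuom, the polyamine oxidase Paox, the mitochondrial ribosome GTPase Mtg1, Glrx3, Tubgcp2, Echs1, Mapk1ip1, Lrrc27, 9430038I01Rik, Olfr539, Bet1l and Ric8a. Within 1 Mb after it they included the phosphatidylserine synthase Ptdss2, the mitochondrial glutamate carrier Slc25a22, the death domain protein Pidd1, the tetraspanin Cd151, the clathrin adaptor Ap2a2, the RNA polymerase subunit Polr2l, Gatd1, Rassf7, Lrrc56 and the pseudogene Gm5905. Farther on they included the signalling adaptor Tollip, the kinase activator Mob2, the synaptotagmin Syt8, Gm49369, the taste channel Trpm5, the cysteinyl-tRNA synthetase Cars and the lysosomal channel Tpcn2. Ap2a2 showed how narrow the spread of an abundant gene was, at 104, 104 and 106 TPM in male WT and 102, 110.3 and 106 in the male KO libraries (0.018, SE 0.044).

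37 of the 78 genes share exon bases with another annotated gene, most of them on the opposite strand. Levels ran from a mean of 1.03 to 560 TPM with a median of 17, and 18 genes had means under 5 TPM, where a spread of 1 TPM between libraries is a large part of the level.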

How the data were processed

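Polyadenylated RNA of 12 MEF cultures (WT and KO of each sex, 3 libraries per group) was sequenced. The authors quantified reads with Salmon (1.10.1 in the submitters' processing notes) against GRCm38 and deposited TPM for 34866 genes. Positions came from GENCODE M21 of GRCm38, to which 99.4% of identifiers matched. The flanking genes and gene lists were chosen with earlier results of these data known.

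TPM are not counts, so limma 3.58.1 (R 4.3.3) replaced the study's DESeq2. It was fitted to log2(TPM+1) for the 12504 genes whose mean reached 1 TPM, with the variance following a trend on the mean. Pairs of groups were compared in fits of 6 libraries. The mean KO effect and the sex by genotype interaction used all 12. Genes named were those within 250 kb of Sirt3, the 10 largest called changes per direction in the male, female and mean tests and the 10 largest in the interaction, genes called in both sexes and list members. The code was tested on simulated data.

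Alternatives were a pseudocount of 0.1, quantile normalization, no filter, a filter at 5 TPM, no trend, median-of-ratios scaling, 1 fit of all libraries, an additive model, the replicate block, adding the listed genes and leaving out each library. Promoter windows came from RefSeq (GRCm38.p6).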

Additional observations from a re-analysis of the deposited data

Results flagged for a closer look

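For 9 flanking genes the KO effect differed between males and females in a direct test, the sex by genotype interaction of limma at an adjusted p under 0.05. On the log2(TPM+1) scale, the male minus the female KO effect was 3.68 for Syce1, 0.768 for Pwwp2b, 0.74 for Dusp8, 0.407 for Pnpla2 and 0.175 for Ctsd. It was -1.53 for Adam8, -0.921 for Eps8l2, -0.56 for Lsp1 and -0.318 for Ifitm3. Pwwp2b was called in opposite directions in the sexes, Syce1, Dusp8 and Adam8 in males and Lsp1, Pnpla2 and Ctsd in females, Eps8l2 in both sexes in 1 direction, and Ifitm3 in neither sex alone. The value of Syce1 rests on WT groups listed at 0, was 6.63 with a pseudocount of 0.1 and is no measure of fold. The share of 11.5% was below the 13% of all genes tested. With the 9 left-out names that reached 1 TPM added, 16 of 87 passed, a share above that 13%. Whether the share lay below or above that of all genes thus depended on the names left out.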

How the results depend on the processing

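Of 57 called differences of named genes (in the male, female, mean and interaction tests), 0 reversed under any alternative. With each library left out in turn, 395 of 528 results kept the call and 133 lost it. Without the filter on low values 17 of 57 were lost, without the trend 12, under the replicate block 12, with median-of-ratios scaling 4, with quantile normalization or a pseudocount of 0.1 1 each, with all libraries in 1 fit 3 of 26, and in the additive model 4 of 22.

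The count of flanking genes called in male KO MEFs, 15, was 9 without the filter, and 9 to 12 with 1 library left out, at 9 without male WT 3 or male KO 3. That in female KO MEFs, 11, was 7 without the filter and 5 to 8 with 1 library left out, at 5 without female WT 3 or female KO 2 and at 6 without female WT 1, female KO 1 or female KO 3. The mean KO effect, 22, gave 16 to 21. The interaction, 9, gave 7 to 10, and 16 when the 9 listed genes that pass the filter were added. With these 9 genes the male count was 21 of 87, 11 higher and 10 lower. The female count was 13, and that of the mean KO effect was 28, 12 higher and 16 lower. Between WT sexes the 12 became 5 to 8, at 8 without male WT 2 and at 7 or less without any other library. Between KO sexes the 18 became 6 to 12, at 12 without male KO 2 and at 10 or less without any other library, 9 without the filter and 11 without the trend. The 5 genes called in both sexes in the same direction became 3 to 5 with 1 library left out, at 3 without male WT 1, male WT 3, male KO 2, female WT 3 or any female KO library, 2 without the filter, 3 at a mean of at least 5 TPM and 3 without the trend. With 1 library left out the smaller group has 2 libraries, and the cause of other moves was not tested. The share of all genes called is not given for these alternative fits or for the replicate block below. Whether a count of flanking genes moved together with the calls among all genes was therefore not tested.

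The replicate block gave 15 in males, 4 in females, 25 on the mean, 10 for the interaction, 7 between WT sexes, 11 between KO sexes and 2 in both sexes. Same-numbered libraries deviated from their group means with correlations of -0.0571 to 0.0779. In each comparison 0 to 2 of 6 libraries correlated best with their own number, so the numbers were not shown to pair libraries. Read depth is unknown, so no counting error could be given.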

Other observations

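When all genes of the table were searched for a level of at least 5 TPM in every library of 1 group and at most 0.1 TPM in the 9 others, the male KO group gave 2 genes, Syce1 and Havcr1, an epithelial phosphatidylserine receptor on another chromosome, and the other groups gave 0. The search was chosen after the values of Syce1 were seen.

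Of the window's genes with a mean under 1 TPM, 8 reached 1 TPM in at least 1 library. The potassium channel gene Kcnq1 was at 2.60 TPM in female WT 3 and 4.69 TPM in female KO 3, and at or under 0.607 TPM in the other 10 libraries. Gm45499 was at 2.18 and 2.14 TPM in male WT 1 and male WT 2 and listed at 0 in the others. Gm45456 was at 2.94 and 2.60 TPM in male WT 2 and male WT 3 and 2.75 TPM in male KO 3, and listed at 0 in the others. Ifitm1 reached 1.04 TPM in male KO 3 and stayed at or under 0.579 TPM elsewhere. These genes were chosen after their values were seen and were not tested.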
